A study of Homo sapiens with 14 samples.

Results

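The laminin chain genes described here are LAMA1, LAMA2, LAMA3, LAMA4 and LAMA5, which encode alpha chains, LAMB1, LAMB2 and LAMB3, which encode beta chains, and LAMC1, which encodes a gamma chain. They were chosen by gene symbol and make up 9 of the 59050 genes in the count table. Their levels were read in HUES8, an established human embryonic stem cell line of wild-type (WT) genotype, differentiated into definitive endoderm (DE), then into early (PP1) and late (PP2) pancreatic progenitors. Sequencing of rRNA-depleted total RNA (RNA) and of ribosome-bound RNA by ribosome profiling (Ribo) addressed how transcript levels and ribosome occupancy differ between the stages. All 14 libraries came from 1 cell line, and each assay covered DE with 2 libraries, PP1 with 2 and PP2 with 3. The labels give no genetic or drug treatment that distinguishes the groups, so each comparison is between stages of 1 differentiation course. Whether replicates came from separate differentiations was not given in the sources used here, and p-values measure only the spread between these libraries, which may be technical.

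A laminin is a secreted trimer of 1 alpha, 1 beta and 1 gamma chain, joined along a long coiled coil in the endoplasmic reticulum before secretion. The beta and gamma chains carry the trimer's assembly, and the alpha chain ends in globular domains that bind integrins and dystroglycan on the cell surface. Laminins, nidogens, perlecan and collagen IV together form the basement membrane under epithelia. There laminins position and polarise the cells of the early embryo and of the developing pancreas.

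The start regions of 4 chains whose RNA changed are shown because LAMB1 and LAMC1 both rose from DE to PP1, LAMA4 fell, and LAMA3 rose at a low level. They were chosen after their values were seen. Each is 300 bases long, 250 before and 50 after a RefSeq transcript start of build GRCh38.p14, written 5′ to 3′ on the gene's strand, with motif matches in capitals. The LAMB1 window is chr7:108003112-108003411 on the minus strand, LAMC1 is chr1:183023170-183023469 on the plus strand, LAMA4 is chr6:112254518-112254817 on the minus strand and LAMA3 is chr18:23872770-23873069 on the plus strand. The LAMA3 window lies inside the annotated span of the gene, which runs from 23689453 to 23955066, so it marks an internal start. The LAMA4 window also lies inside its gene's span, which runs from 112107931 to 112254985, so it too marks an internal start.
LAMB1: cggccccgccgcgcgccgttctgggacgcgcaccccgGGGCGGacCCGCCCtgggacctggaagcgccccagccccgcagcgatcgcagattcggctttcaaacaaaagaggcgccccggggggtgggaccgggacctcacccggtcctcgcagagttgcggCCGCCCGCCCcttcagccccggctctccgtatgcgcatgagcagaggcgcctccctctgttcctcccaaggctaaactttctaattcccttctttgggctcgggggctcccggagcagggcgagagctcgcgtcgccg
LAMC1: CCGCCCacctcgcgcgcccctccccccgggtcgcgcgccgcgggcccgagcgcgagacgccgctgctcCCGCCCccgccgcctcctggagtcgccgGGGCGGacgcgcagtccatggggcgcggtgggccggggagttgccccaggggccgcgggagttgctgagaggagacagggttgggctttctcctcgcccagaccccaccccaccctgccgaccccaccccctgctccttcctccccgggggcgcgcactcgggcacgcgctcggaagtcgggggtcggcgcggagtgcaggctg
LAMA4: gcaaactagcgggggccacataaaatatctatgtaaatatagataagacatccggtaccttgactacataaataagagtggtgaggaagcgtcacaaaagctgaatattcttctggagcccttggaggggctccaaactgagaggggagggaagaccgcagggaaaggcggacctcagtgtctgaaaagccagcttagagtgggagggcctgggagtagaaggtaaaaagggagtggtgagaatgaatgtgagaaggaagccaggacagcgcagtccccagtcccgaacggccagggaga
LAMA3: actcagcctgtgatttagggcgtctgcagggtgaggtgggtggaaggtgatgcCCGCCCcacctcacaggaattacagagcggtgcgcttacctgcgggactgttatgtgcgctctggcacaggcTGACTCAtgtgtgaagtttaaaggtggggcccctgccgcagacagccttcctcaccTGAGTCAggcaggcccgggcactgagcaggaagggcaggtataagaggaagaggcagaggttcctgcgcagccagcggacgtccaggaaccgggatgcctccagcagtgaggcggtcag

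Of the 9 genes, 8 had such a window and LAMA1 is named only. Either strand was searched for the letters GGGCGG, the GC box that SP factors bind. The core promoter letters TATAAA were searched as well, and so were those of the upstream element CCAAT. The AP-1 motif was spelled TGACTCA. The half-site of nuclear receptors was spelled AGGTCA. The LAMB1 window held 4 GC box matches, of which 2 overlap, and the LAMC1 window held 3, while LAMA5 had the most, with 5. In 35116 windows of the same length, 45.0% held at least 1 GC box match. GC content was 71.0% in LAMB1, 79.0% in LAMC1 and 51.3% in LAMA4, whose window held no match to any of the 5 motifs. LAMA3 had 2 AP-1 matches, a motif found in 4.95% of all windows, and 1 GC box match. No window of these 8 genes held TATAAA, which 11.5% of all windows did. These matches describe letters and not bound sites.

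RNA libraries held 15107847 to 21009065 counts and Ribo libraries 4710335 to 24186949. Protein-coding genes took 87.3% to 90.3% of RNA counts but 27.1% to 91.5% of Ribo counts. A mitochondrial ribosomal RNA, MT-RNR2, took 44.6% to 60.8% of Ribo counts except in PP2 replicates 1 and 3, with 1.65% and 11.0%. These 2 Ribo libraries stood apart from the others, and RNA PP2 replicate 3 stood apart from its group. Counts of calls, and the fold changes that move most, are therefore also given without them. Without the 2 Ribo libraries, PP2 Ribo rests on replicate 2 alone. P-values and calls for PP2 from that fit hold no spread within PP2 Ribo and borrow that of the other groups. A DE or PP1 group with 1 library left out likewise has no spread of its own. Stage markers followed the labels. SOX17, an endoderm factor, averaged 0.635 ± 0.230 CPM in PP2 RNA (SD, n = 3) and 470 ± 22.5 CPM in DE RNA (n = 2). NKX6-1, a late progenitor factor, had 118 ± 41.6 CPM in PP2 RNA and no count in DE RNA. CPM is the count per 1e6 counts, with library sizes scaled by TMM, the trimmed mean of M-values.

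Together the 9 laminin genes took a larger part of the protein-coding RNA in early progenitors than in definitive endoderm or late progenitors. Their share was 0.223% ± 0.0094 in DE (SD, n = 2), 0.510% ± 0.0055 in PP1 (n = 2) and 0.291% ± 0.057 in PP2 (n = 3). Among Ribo counts in protein-coding genes it was 0.206% ± 0.0073 in DE, 0.481% ± 0.0054 in PP1 and 0.475% ± 0.11 in PP2. The 95% Wilson interval of each library's share reached at most 0.011 percentage points to either side, for counting error only. In bulk libraries, fewer cells making a transcript and less transcript per cell cannot be told apart.

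From DE to PP1, RNA of 4 laminin chains rose, RNA of 1 fell and 4 did not pass (edgeR quasi-likelihood test, Benjamini-Hochberg adjusted p under 0.05). LAMB1, LAMC1, LAMA3 and LAMA1 rose and LAMA4 fell. Of all 24603 genes tested, 24.3% passed in this comparison, 12.3% higher and 12.0% lower in PP1. The median log2 fold change was 0.93 over the 9 chains and 0.01 over all tested genes. From PP1 to PP2, LAMA1, LAMA2, LAMB1 and LAMC1 fell, LAMA4 rose and 4 did not pass, where 18.4% of all genes passed, 7.80% higher and 10.6% lower in PP2. The median was -0.77 over the chains and 0.01 over all genes. Between PP2 and DE, RNA of LAMA3, LAMB1, LAMB3 and LAMC1 was higher in PP2, LAMA2 was lower and 4 did not pass, where 33.5% of all genes passed, 16.4% higher and 17.1% lower. The median was 0.16 over the chains and 0.05 over all genes. These 3 comparisons share libraries and are not independent of each other.

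Without RNA PP2 replicate 3, 49.8% of all genes passed between PP1 and DE. All 9 chains then passed in that comparison, 8 higher and LAMA4 lower in PP1. Between PP2 and PP1, 7 chains passed without it, where 41.4% of all genes did, and between PP2 and DE also 7, where 52.5% did.

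**Figure D1:**
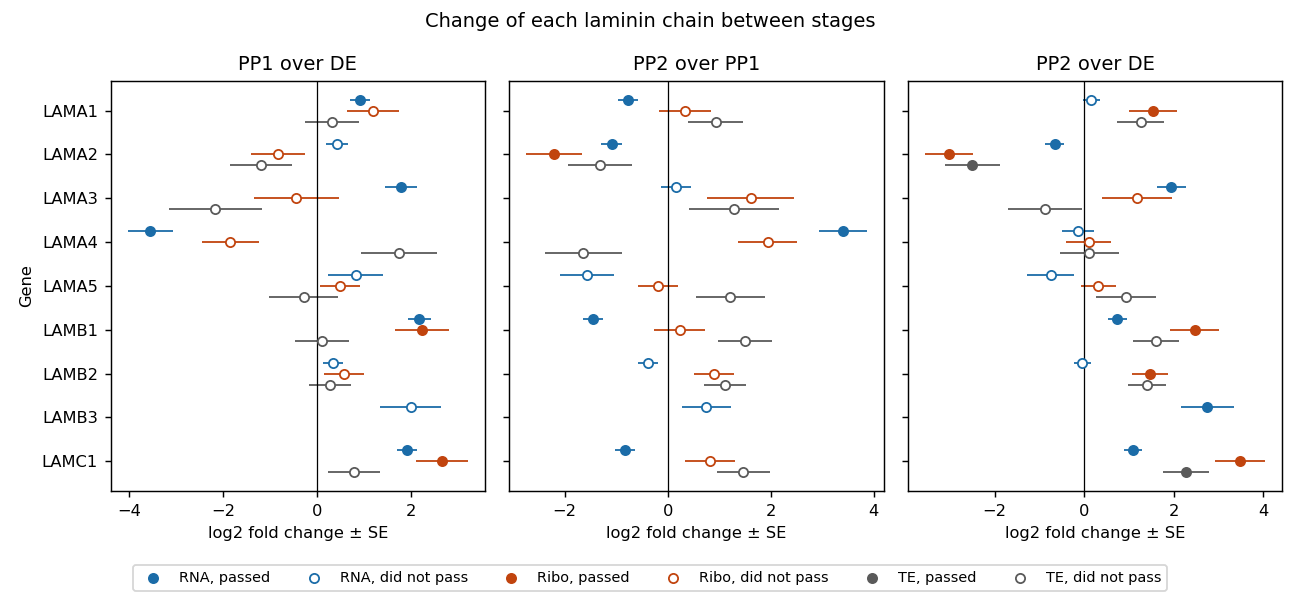
Log2 fold change ± standard error (SE) of each laminin chain in the 3 stage comparisons, for RNA, Ribo and translation efficiency (TE, the Ribo change minus the RNA change); filled points passed at adjusted p under 0.05. LAMB3 is drawn for RNA only, since its Ribo counts summed to 3 in PP1. LAMB1 and LAMC1 lie right of 0 for both RNA and Ribo in the left and right panels, and in the middle panel their RNA lies left of 0 and their Ribo right of it.

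LAMA1 encodes the alpha chain of the first basement membranes of the embryo and had the highest RNA level of the alpha chains in every library. Its RNA was 974 and 988 CPM in the DE libraries, 1860 and 1877 CPM in PP1, and 1161, 1163 and 953 CPM in PP2. Both PP1 libraries were above all 5 others, and the PP2 range contained the DE values. LAMA1 RNA rose in PP1 over DE by 0.93 ± 0.21 on the log2 scale (SE, edgeR adjusted p = 0.0133). It fell in PP2 against PP1, with a log2 fold change of -0.77 ± 0.19 (adjusted p = 0.0246). PP2 over DE was 0.16 ± 0.19 and did not pass (adjusted p = 0.571). Leaving out any 1 of the 4 DE and PP1 libraries raised the PP1 over DE adjusted p to between 0.0811 and 0.115, with fold changes of 0.92 to 0.94. Leaving out any 1 library other than RNA PP2 replicate 3 raised that of PP2 over PP1 to between 0.0559 and 0.157, with fold changes of -0.82 to -0.76. Without RNA PP2 replicate 3, PP2 over DE was 0.25 and passed (adjusted p = 0.0141).

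LAMA5 encodes the most widespread alpha chain of epithelial basement membranes and was the next highest alpha chain in RNA. It had 314 and 371 CPM in DE, 583 and 631 CPM in PP1, and 261, 291 and 60.6 CPM in PP2. PP1 was again the highest stage, and PP2 replicate 3 was far below every other library. None of its RNA differences passed. PP1 over DE was 0.83 ± 0.59 (edgeR adjusted p = 0.367), PP2 over PP1 was -1.57 ± 0.53 (adjusted p = 0.0757) and PP2 over DE was -0.75 ± 0.53 (adjusted p = 0.32). These results turned on PP2 replicate 3. Without it LAMA5 rose in PP1 over DE by 0.83 (adjusted p = 3.67e-07), PP2 over PP1 was -1.13 (adjusted p = 9.32e-09) and PP2 over DE was -0.30 (adjusted p = 0.011). A neighbouring antisense gene, LAMA5-AS1, averaged at most 1.59 CPM in any RNA group, and without a stated strand setting its reads cannot be told apart from those of LAMA5 where they overlap.

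**Figure D2:**
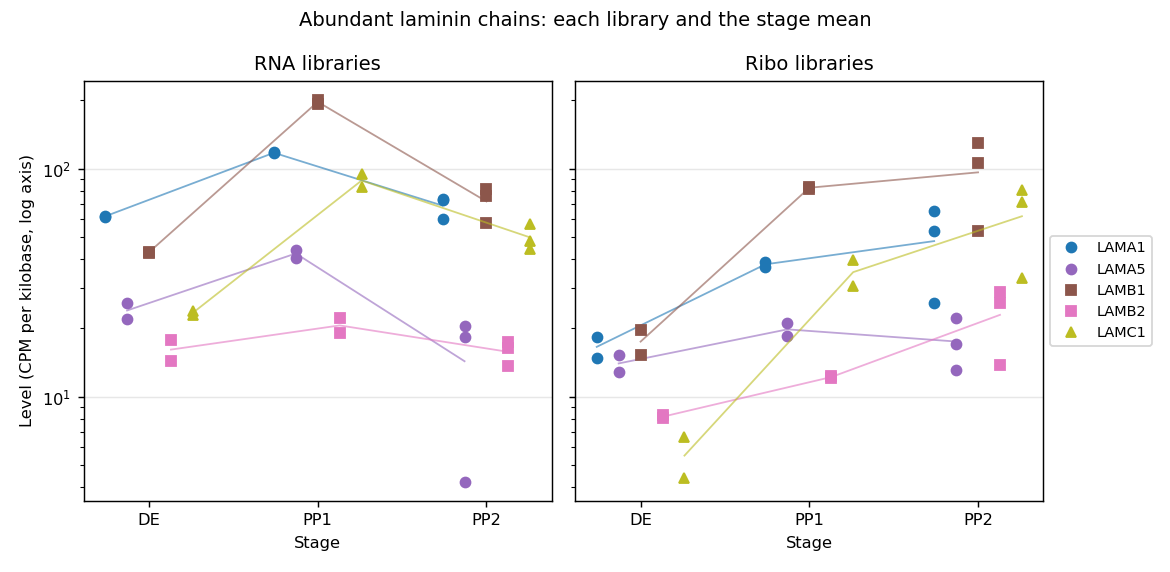
Levels of the 5 abundant laminin chains in CPM per kilobase on a log axis, for each RNA library (left) and Ribo library (right), by stage; points are libraries and lines join stage means. LAMB1, LAMA1, LAMC1 and LAMA5 RNA peaks at PP1, while the Ribo means of LAMB1, LAMA1 and LAMC1 are highest at PP2 with widely spread libraries.

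The other 3 alpha chains were low. LAMA2 encodes the alpha chain of muscle and peripheral nerve basement membranes and is mutated in congenital muscular dystrophy. Its RNA was 10.6 and 13.1 CPM in DE, 14.2 and 17.7 CPM in PP1, and 7.93, 6.63 and 7.93 CPM in PP2. All 3 PP2 libraries were below the other 4. It fell in PP2 against PP1 by 1.09 ± 0.21 on the log2 scale (edgeR adjusted p = 0.00978), a call lost without PP1 replicate 2 (-0.91, adjusted p = 0.107). It was also lower in PP2 than in DE, by -0.66 ± 0.21 (adjusted p = 0.0415). Leaving out any 1 library other than RNA PP2 replicate 3 raised that adjusted p to between 0.0648 and 0.278, with fold changes of -0.81 to -0.51. PP1 over DE was 0.43 ± 0.23 and did not pass (adjusted p = 0.224), and it passed without RNA PP2 replicate 3 (0.44, adjusted p = 0.0463).

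LAMA2 footprints moved further than its RNA. Ribo levels were 15.2 and 23.4 CPM in DE, 8.88 and 13.1 CPM in PP1, and 1.47, 4.27 and 1.66 CPM in PP2. The 3 stages did not overlap, and the groups rested on 215, 78 and 114 counts in DE, PP1 and PP2. LAMA2 Ribo fell in PP2 against DE, with a log2 fold change of -3.02 ± 0.54 (edgeR adjusted p = 0.00294), which held in every alternative run and was -2.12 without Ribo PP2 replicates 1 and 3. It also fell in PP2 against PP1 (-2.21 ± 0.54, adjusted p = 0.0431). That call was lost without any 1 library other than Ribo PP2 replicate 2 (fold changes of -2.40 to -1.83, adjusted p 0.0599 to 0.294), and without Ribo PP2 replicates 1 and 3 together (-1.35, adjusted p = 0.228). Markers of smooth and skeletal muscle summed to 17.8 to 21.0 CPM in DE RNA, 11.2 to 17.4 CPM in PP1 and 7.01 to 10.6 CPM in PP2. Of these 7 markers, 3 averaged over 1 CPM in DE, 4 in PP1 and 3 in PP2, and MYOD1, a defining muscle factor, had no count in any RNA library. Their part in the fall of LAMA2 was not tested.

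LAMA3 encodes the alpha chain of the laminin that anchors stratified epithelia such as skin. Its RNA was 2.97 and 1.86 CPM in DE, 7.06 and 9.72 CPM in PP1, and 8.04, 11.8 and 8.25 CPM in PP2. Both DE libraries were below all 5 others, and PP1 and PP2 overlapped. It rose in PP1 over DE by 1.79 ± 0.34 on the log2 scale (edgeR adjusted p = 0.00653), a call lost without RNA DE replicate 2 (1.49, adjusted p = 0.0675) and without RNA PP1 replicate 2 (1.54, adjusted p = 0.0557). PP2 over DE was 1.95 ± 0.33 (adjusted p = 0.00244) and passed in every alternative run. PP2 over PP1 was 0.16 ± 0.29 (adjusted p = 0.751). LAMA3 Ribo levels were 1.42 and 3.80 CPM in DE, 2.69 and 1.16 CPM in PP1, and 4.42, 2.72 and 10.6 CPM in PP2, and no Ribo difference passed. Only 14 Ribo counts stood behind the PP1 group.

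LAMA4 encodes the alpha chain of vascular and mesenchymal basement membranes and was the single chain whose RNA fell and then rose. It had 5.82 and 8.97 CPM in DE, 0.685 and 0.572 CPM in PP1, and 9.08, 4.18 and 6.87 CPM in PP2. Both PP1 libraries were far below the rest, while DE and PP2 overlapped. Its RNA fell in PP1 against DE, with a log2 fold change of -3.55 ± 0.48, 11.7-fold lower in PP1 (edgeR adjusted p = 0.00113). It rose in PP2 over PP1 by 3.41 ± 0.46, 10.6-fold higher in PP2 (adjusted p = 0.00225). Each of these calls held in every alternative run, and PP1 RNA held 21 counts in all. PP2 over DE was -0.14 ± 0.35 (adjusted p = 0.795), and its sign turned without RNA DE replicate 2 (0.20) and without RNA PP2 replicate 2 (0.12).

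The footprints of LAMA4 followed the same order of stages without passing. They were 9.40 and 14.9 CPM in DE, 2.15 and 4.65 CPM in PP1, and 13.8, 7.12 and 17.8 CPM in PP2. Both PP1 libraries were the lowest. PP1 over DE was -1.84 ± 0.61 (edgeR adjusted p = 0.1) and PP2 over PP1 was 1.94 ± 0.58 (adjusted p = 0.0785). Without Ribo PP2 replicate 2, the first passed (-1.83, adjusted p = 0.033), and so did the second (2.24, adjusted p = 0.00778). Without Ribo PP2 replicates 1 and 3 the first passed (-1.79, adjusted p = 0.0301) and the second was 1.07 (adjusted p = 0.484). Markers of endothelium summed to 169 to 203 CPM in DE RNA, 11.1 to 11.4 CPM in PP1 and 32.5 to 48.5 CPM in PP2, so their sum was lowest in the same libraries as LAMA4. Of these 8 markers, 3 averaged over 1 CPM in DE, 2 in PP1 and 4 in PP2. VWF and KDR made up most of the DE sum, at 146 and 33.5 CPM. The defining endothelial markers PECAM1 and CDH5 had another order of stages, with PECAM1 at 0.558, 1.93 and 5.15 CPM and CDH5 at 0.456, 0.912 and 4.09 CPM in DE, PP1 and PP2 RNA. The part of endothelial cells in the LAMA4 pattern was not tested.

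**Figure D3:**
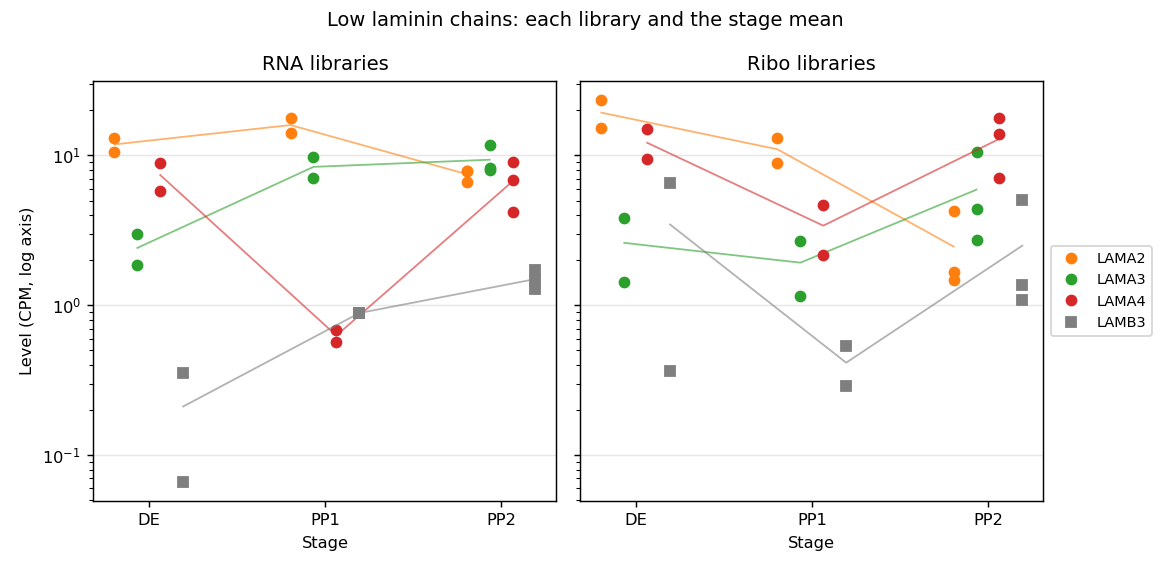
Levels of the 4 low laminin chains in CPM on a log axis, for each RNA library (left) and Ribo library (right), by stage; points are libraries and lines join stage means. LAMA4 RNA dips below 1 CPM in PP1 alone, LAMA3 and LAMB3 RNA is lowest in DE, and LAMA2 Ribo steps down through the stages.

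LAMB1 encodes the widespread beta chain of early embryonic laminins and had the largest RNA rise from DE to PP1 among the abundant chains. Its RNA was 349 and 345 CPM in DE, 1615 and 1557 CPM in PP1, and 614, 660 and 466 CPM in PP2. The 3 stages did not overlap. LAMB1 rose in PP1 over DE by 2.19 ± 0.24 on the log2 scale, 4.57-fold (edgeR adjusted p = 0.000364). It fell in PP2 against PP1, with a log2 fold change of -1.45 ± 0.20, 2.73-fold lower in PP2 (adjusted p = 0.00272). Each call held in every alternative run. PP2 stayed above DE by 0.74 ± 0.21 (adjusted p = 0.0274), a call lost when any 1 library other than RNA PP2 replicate 3 was left out (fold changes of 0.65 to 0.75, adjusted p 0.0588 to 0.179).

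LAMB2 encodes the beta chain of neuromuscular synapses and of the kidney filter. Its RNA was steady beside that of LAMB1, with 98.9 and 122 CPM in DE, 130 and 152 CPM in PP1, and 112, 119 and 93.4 CPM in PP2. PP1 was the highest stage, and PP2 and DE overlapped. No LAMB2 RNA difference passed. PP1 over DE was 0.35 ± 0.21 (edgeR adjusted p = 0.282), PP2 over PP1 was -0.38 ± 0.19 (adjusted p = 0.2) and PP2 over DE was -0.04 ± 0.19 (adjusted p = 0.907). Without RNA PP2 replicate 3 the first was 0.35 (adjusted p = 0.00869), the second was -0.29 (adjusted p = 0.0342) and the third turned to 0.07 (adjusted p = 0.628). The third also turned to 0.12 without RNA DE replicate 2.

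LAMB3 encodes the beta chain of the same skin laminin as LAMA3 and was close to the detection limit. RNA was 0.356 and 0.0665 CPM in DE, 0.891 and 0.884 CPM in PP1, and 1.72, 1.48 and 1.29 CPM in PP2, from 7, 30 and 90 counts. The 3 stages did not overlap. LAMB3 was higher in PP2 than in DE by 2.75 ± 0.59 on the log2 scale (edgeR adjusted p = 0.00835), a call lost without RNA DE replicate 2 (2.04, adjusted p = 0.0601). PP1 over DE was 2.0 ± 0.65 (adjusted p = 0.0576), and it passed without RNA DE replicate 1 (3.61, adjusted p = 0.0405) and without RNA PP2 replicate 3 (1.99, adjusted p = 0.0202). PP2 over PP1 was 0.75 ± 0.48 (adjusted p = 0.314). In Ribo, DE replicate 1 held 37 of the 39 DE counts, PP1 held 3 counts and PP2 held 108. The PP1 rate was 0.12 times the DE rate, with a 95% counting interval of 0.0237 to 0.377 that rests on DE replicate 1, and the PP2 rate was 4.23 times the PP1 rate (1.41 to 20.8). These intervals cover counting error only. The PP2 libraries spread from 1.08 to 5.05 CPM, and across libraries neither comparison passed (edgeR adjusted p = 0.264 for PP1 over DE and 0.324 for PP2 over PP1). Markers of stratified epithelium summed to at most 10.9 CPM in any RNA library, with KRT14 at 0 in DE and in PP1 RNA.

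LAMC1 encodes the gamma chain of most laminins, and its RNA rose and fell at the same stages as that of LAMB1. Its RNA was 194 and 201 CPM in DE, 703 and 797 CPM in PP1, and 408, 483 and 374 CPM in PP2. The 3 stages did not overlap. LAMC1 rose in PP1 over DE by 1.93 ± 0.21 on the log2 scale, 3.80-fold (edgeR adjusted p = 0.000429), which held in every alternative run. PP2 was higher than DE by 1.10 ± 0.20 (adjusted p = 0.00347), lost only without RNA DE replicate 1 among the libraries left out (1.07, adjusted p = 0.0538). PP2 over PP1 was -0.83 ± 0.19 (adjusted p = 0.019). Leaving out any 1 library other than RNA PP2 replicates 2 and 3 raised that adjusted p to between 0.055 and 0.162, with fold changes of -0.92 to -0.73. An antisense gene at the same locus, LAMC1-AS1, had 16, 29 and 90 RNA counts in DE, PP1 and PP2, and with no stated strand setting overlapping reads cannot be told apart.

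The RNA rise of LAMA1, LAMB1 and LAMC1 in PP1 coincided with markers that extraembryonic endoderm shares with fetal liver and gut. Markers of extraembryonic endoderm, a cell type rich in these 3 chains in the embryo, summed to 23.9 to 24.0 CPM in DE RNA, 7829 to 8390 CPM in PP1 and 1661 to 4376 CPM in PP2. Of the 6 markers, 3 averaged over 1 CPM in DE, 4 in PP1 and 5 in PP2. AFP, TTR and APOA1, which encode secreted plasma proteins, made up nearly all of the PP1 sum, at 6770, 999 and 334 CPM. SOX7 and PTH1R, which mark parietal endoderm more narrowly, were at 0.998 and 0.052 CPM in PP1, and THBD was at 1.09 CPM. The DE means of PTH1R and THBD were higher, 1.37 and 7.93 CPM, and that of SOX7 was lower, 0.489 CPM. For RNA of PP1 over DE, 3 of the 6 markers passed as higher, 2 passed as lower and 1 did not pass. The list therefore did not rise as a whole alongside the 3 chains. Mesenchyme markers, 12 in all, summed to 231 to 249 CPM in DE RNA, 476 to 548 CPM in PP1 and 311 to 516 CPM in PP2. Of these, 7 averaged over 1 CPM in DE, 9 in PP1 and 10 in PP2, with COL3A1 and ACTA2 at 0 in DE. The part of such cells in the laminin levels was not tested.

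Levels per kilobase of the deposited gene length put the chains in order within a stage. In DE RNA the order was LAMA1 at 61.9 CPM per kilobase, LAMB1 at 43.0, LAMA5 at 23.9, LAMC1 at 23.4 and LAMB2 at 16.1, where LAMA5 and LAMC1 overlapped between libraries. In PP1 RNA LAMB1 led at 196 CPM per kilobase, above LAMA1 at 118, LAMC1 at 88.8, LAMA5 at 42.5 and LAMB2 at 20.5, with no overlap between neighbours. In PP2 RNA LAMB1 at 71.9 and LAMA1 at 68.9 CPM per kilobase overlapped, followed by LAMC1 at 49.9, then LAMB2 at 15.7 and LAMA5 at 14.3, which overlapped. In Ribo libraries LAMB1 had the highest mean level at each stage, at 17.4, 82.5 and 96.7 CPM per kilobase in DE, PP1 and PP2. It overlapped LAMA1 in DE and LAMC1 in PP2, and in DE replicate 1 LAMA1 was higher than LAMB1. LAMC1 was the fifth chain in DE Ribo at 5.52 and the third in PP1 at 35.2, overlapping LAMA1. In PP2 it was the second at 61.9, and its range across libraries overlapped those of LAMB1 and LAMA1. Within each PP2 Ribo library, LAMB1 was above LAMC1 and LAMC1 above LAMA1. The other 4 chains were at or below 1.86 CPM per kilobase on average in every group.

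Within the beta chains, LAMB1 took a larger share of the level per kilobase in PP1 than in the other stages. Its RNA share was 74.9% and 70.6% in the DE libraries, 91.2% and 89.6% in the PP1 libraries, and 82.1%, 82.3% and 80.6% in PP2. Its Ribo share was 61.6% and 70.2% in the DE libraries, 87.0% in each PP1 library, and 80.3%, 78.2% and 81.7% in PP2. The stages did not overlap in either assay. LAMB1 was 3.0 and 2.40 times LAMB2 in DE RNA, 10.5 and 8.73 times in PP1, and 4.68, 4.72 and 4.25 times in PP2.

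Within the alpha chains, LAMA1 and LAMA5 together made up most of the level. LAMA1 took 72.2% and 68.9% in DE RNA, 73.3% and 71.8% in PP1, and 78.2%, 76.8% and 90.7% in PP2, where the last value belongs to replicate 3 with its low LAMA5. In Ribo libraries LAMA1 took 51.0% and 47.1% in the DE libraries, 63.6% and 64.9% in the PP1 libraries, and 73.9%, 64.3% and 72.6% in PP2. DE was the lowest stage in Ribo, and PP1 and PP2 overlapped. LAMA5 took most of the remainder, with 42.3% and 40.7% in DE Ribo, 34.4% and 32.0% in PP1 Ribo, and 23.8%, 32.6% and 24.6% in PP2. These shares are a description with no test.

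**Figure D4:**
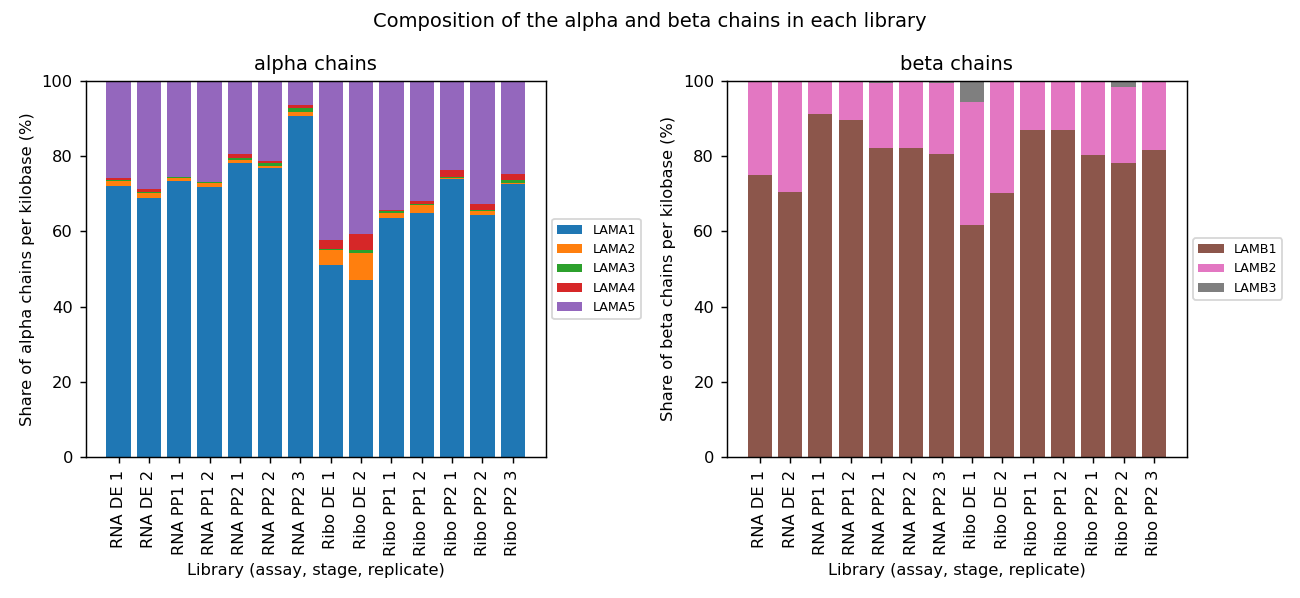
Share of each chain in the summed level per kilobase of the 5 alpha chains (left) and the 3 beta chains (right), one bar per library. LAMB1 takes 91.2% and 89.6% of the beta chains in PP1 RNA, and LAMA1 shares the alpha chains with LAMA5 most evenly in DE Ribo.

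The balance of alpha to gamma chains differed between the stages. The summed alpha level per kilobase was 3.71 and 3.80 times that of LAMC1 in DE RNA, 1.92 and 1.75 times in PP1, and 1.94, 1.67 and 1.5 times in PP2. In Ribo it was 8.19 and 4.72 times in DE, 2.02 and 1.44 times in PP1, and 1.0, 1.22 and 1.12 times in PP2. DE was the highest stage in each assay. The summed beta level was 2.52 and 2.54 times that of LAMC1 in DE RNA, 2.64 and 2.28 times in PP1, and 1.92, 1.74 and 1.62 times in PP2. In Ribo the beta ratio was 5.62 and 4.22 in the DE libraries, 3.15 and 2.35 in the PP1 libraries, and 1.85, 2.06 and 1.98 in PP2, with no overlap between stages. These ratios within a library do not depend on its scaling but count LAMC1 as the only gamma chain, and they have no test.

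**Figure D5:**
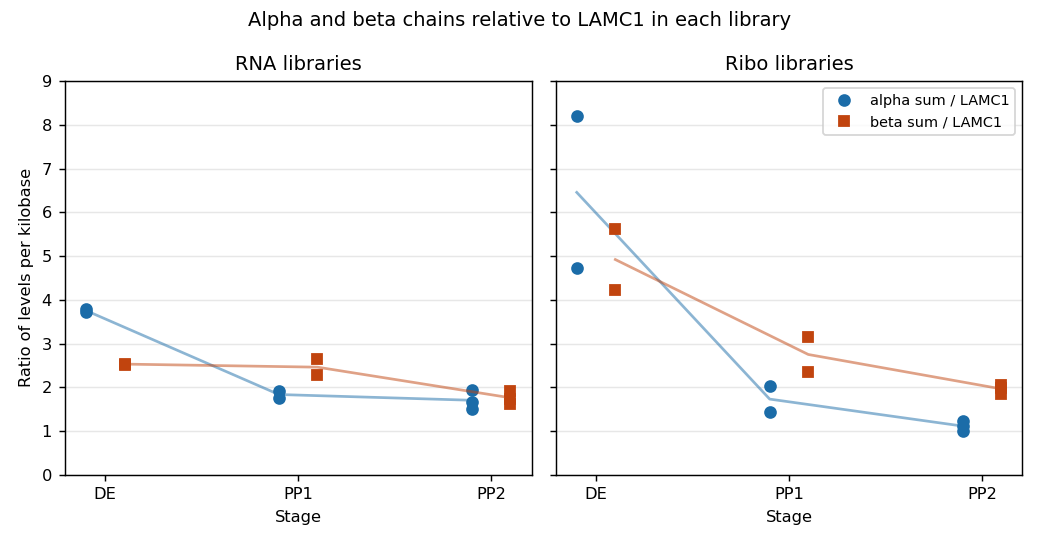
Summed alpha chains (circles) and summed beta chains (squares) relative to LAMC1, as ratios of levels per kilobase, for each RNA library (left) and Ribo library (right), by stage; lines join stage means. The DE libraries have the highest alpha ratios, up to 8.19 in Ribo, and the 3 PP2 Ribo libraries lie between 1.0 and 1.22.

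In ribosome profiling, LAMB1 and LAMC1 footprints rose from DE to PP1 and the other 7 chains did not pass, where 7.53% of 15067 tested genes passed, 4.52% higher and 3.01% lower. LAMB1 Ribo was 123 and 159 CPM in DE, 673 and 660 CPM in PP1, and 859, 430 and 1053 CPM in PP2. Both DE libraries were below the rest, and PP1 lay within the PP2 range. LAMB1 Ribo rose in PP1 over DE by 2.24 ± 0.57 on the log2 scale (edgeR adjusted p = 0.0362) and was higher in PP2 than in DE by 2.47 ± 0.55 (adjusted p = 0.00857). Leaving out any 1 of the 4 DE and PP1 Ribo libraries raised the first adjusted p to between 0.195 and 0.27, with fold changes of 2.10 to 2.47. The second was lost without Ribo DE replicate 1 (2.38) or replicate 2 (2.75), and was 1.66 without Ribo PP2 replicates 1 and 3.

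LAMC1 Ribo was 37.1 and 56.1 CPM in DE, 257 and 337 CPM in PP1, and 607, 280 and 682 CPM in PP2. DE was the lowest stage, and PP2 replicate 2 lay between the PP1 libraries. LAMC1 Ribo rose in PP1 over DE by 2.67 ± 0.56 on the log2 scale, 6.37-fold (edgeR adjusted p = 0.0148). That call was lost without any 1 of the 4 DE and PP1 Ribo libraries (fold changes of 2.43 to 3.03, adjusted p 0.0676 to 0.177). PP2 over DE was 3.49 ± 0.56, 11.2-fold (adjusted p = 0.00159), which held in every alternative run and was 2.64 without Ribo PP2 replicates 1 and 3.

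LAMA1, LAMB2 and LAMA5 had smaller Ribo differences. LAMA1 Ribo was 291 and 234 CPM in DE, 619 and 591 CPM in PP1, and 842, 410 and 1039 CPM in PP2. PP1 over DE was 1.2 ± 0.55 (edgeR adjusted p = 0.23), and without Ribo PP2 replicates 1 and 3 together it was 1.25 and passed (adjusted p = 0.000362). It passed too without Ribo PP2 replicate 2 (1.21, adjusted p = 0.0244). PP2 over DE was 1.54 ± 0.53 and passed narrowly (adjusted p = 0.0495). It was lost without any 1 library other than Ribo PP2 replicate 2 (fold changes of 1.25 to 1.78, adjusted p 0.057 to 0.24), and was 0.70 without Ribo PP2 replicates 1 and 3 (adjusted p = 0.0882).

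LAMB2 Ribo was 55.3 and 56.9 CPM in DE, 84.8 and 83.0 CPM in PP1, and 177, 94.8 and 198 CPM in PP2. The 3 stages did not overlap. LAMB2 footprints were higher in PP2 than in DE by 1.48 ± 0.40 on the log2 scale (edgeR adjusted p = 0.0209). That call was lost without Ribo DE replicate 1 (1.54, adjusted p = 0.125), Ribo DE replicate 2 (1.58, adjusted p = 0.117) or Ribo PP2 replicate 3 (1.28, adjusted p = 0.0661). Without Ribo PP2 replicates 1 and 3 the difference was 0.81 (adjusted p = 0.0784). LAMA5 Ribo was 217 and 183 CPM in DE, 302 and 263 CPM in PP1, and 244, 188 and 317 CPM in PP2, and none of its Ribo differences passed.

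Over the 9 chains, 4 were higher in PP2 Ribo than in DE (LAMA1, LAMB1, LAMB2 and LAMC1), LAMA2 was lower and 4 did not pass, where 27.6% of all genes passed, 13.1% higher and 14.5% lower. Between PP2 and PP1 Ribo, LAMA2 fell and 8 did not pass, where 5.01% passed, 2.16% higher and 2.85% lower. The median Ribo log2 fold change of the chains was 0.50 in PP1 over DE, 0.82 in PP2 over PP1 and 1.18 in PP2 over DE, against -0.04, 0.04 and 0.03 over all genes. Between PP2 and PP1 the sign of 3 abundant chains turned on Ribo PP2 replicates 1 and 3. With them the log2 fold changes were 0.34 ± 0.50 for LAMA1, 0.23 ± 0.50 for LAMB1 and 0.82 ± 0.49 for LAMC1, and without them -0.56, -0.63 and -0.08, none of which passed. LAMB2 was 0.90 ± 0.39 with them and 0.18 without them, and LAMA5 was -0.18 ± 0.39 and -0.58, so neither changed sign. Without those libraries, 0 chains passed between PP2 and PP1 and 3 between PP2 and DE, where 4.54% and 14.2% of all genes did.

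Translation efficiency (TE) is given here as the Ribo change minus the RNA change on the log2 scale, tested as an interaction over 14152 genes. Between PP1 and DE, 0 chains passed in edgeR, 3 had an unadjusted p under 0.05, and 0 passed with DESeq2 or limma voom. Of all genes, 0.269% passed, 0.0707% higher and 0.198% lower. Between PP2 and PP1, 0 chains passed in edgeR, 4 had an unadjusted p under 0.05, 0 passed with DESeq2 and 5 with limma voom, and 0.0777% of all genes passed, all of them lower in PP2. LAMB1 had a TE difference of 1.5 ± 0.52 (adjusted p = 0.299), LAMC1 of 1.47 ± 0.51 (adjusted p = 0.3) and LAMB2 of 1.11 ± 0.41 (adjusted p = 0.332). These 3 passed without Ribo PP2 replicate 2, at 1.77 (adjusted p = 0.0149), 1.74 (adjusted p = 0.0148) and 1.34 (adjusted p = 0.0224), and so did LAMA2 at -1.94 (adjusted p = 0.0259).

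Between PP2 and DE, LAMC1 had a higher TE and LAMA2 a lower one in PP2, where 5.68% of all genes passed, 2.01% higher and 3.67% lower. The LAMC1 difference was 2.27 ± 0.51 (edgeR adjusted p = 0.0237) and that of LAMA2 was -2.50 ± 0.61 (adjusted p = 0.0315). The log2 ratio of mean Ribo CPM to mean RNA CPM of LAMC1 was -2.08 in DE, -1.34 in PP1 and 0.31 in PP2. Among the genes tested for TE these were the 22.1, 43.9 and 86.0 percentiles. LAMA2 ran the other way, at 0.70, -0.54 and -1.6, the 87.5, 70.7 and 30.0 percentiles. Without Ribo PP2 replicates 1 and 3 neither passed, with 1.49 for LAMC1 (adjusted p = 0.0969) and -1.51 for LAMA2 (adjusted p = 0.177).

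Single libraries also decided these TE calls. The LAMC1 call was lost without 4 of the 14 libraries, RNA DE replicates 1 (2.31, adjusted p = 0.114) and 2 (2.24, adjusted p = 0.122), RNA PP2 replicate 1 (2.26, adjusted p = 0.0534) and Ribo DE replicate 1 (2.13, adjusted p = 0.0724). The LAMA2 call was lost without 9 of the 14, which left RNA PP2 replicate 3, Ribo DE replicate 1, Ribo PP2 replicate 2 and both Ribo PP1 libraries as those whose removal kept it. Its fold changes without the 9 were -2.65 to -2.03, with adjusted p 0.0502 to 0.164. Other TE differences between PP2 and DE were 1.61 ± 0.52 for LAMB1 (adjusted p = 0.0751) and 1.40 ± 0.42 for LAMB2 (adjusted p = 0.0596). Without Ribo PP2 replicate 2 they were 1.87 (adjusted p = 0.00381) and 1.62 (adjusted p = 0.0029), and LAMA1 at 1.53 passed too (adjusted p = 0.00988). In that fit LAMB3 passed in the other direction, at -4.38 (adjusted p = 0.0201), with 37 of its 39 DE Ribo counts in DE replicate 1. The ratio of mean Ribo to mean RNA level was highest in PP2 for all of the abundant chains, LAMA1, LAMA5, LAMB1, LAMB2 and LAMC1. For the low chains it was highest in DE or PP1. These ratios are a description with no test.

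Laminin receptors were read from a list of 10 genes. From DE to PP1, RNA of 3 rose, 1 fell and 6 did not pass, where 24.3% of all genes passed. ITGA2 and ITGA1, the alpha subunits of integrins that bind collagen and laminin, rose by 4.93 ± 0.34 and 2.41 ± 0.39 on the log2 scale (edgeR adjusted p = 4.29e-05 and 0.00273). ITGA2 averaged 22.2 ± 1.64 CPM in PP1 RNA and 0.725 ± 0.102 CPM in DE RNA (SD, n = 2 each). ITGA3, the alpha subunit of an epithelial laminin receptor, rose by 1.6 ± 0.24 (adjusted p = 0.00203). ITGA7, a muscle laminin receptor subunit, fell with a log2 fold change of -1.75 ± 0.23 (adjusted p = 0.000924). From PP1 to PP2, ITGA1 RNA rose by 1.10 ± 0.32 (adjusted p = 0.0494) and 9 did not pass, where 18.4% of all genes passed. Between PP2 and DE, 5 were higher in PP2 RNA, 1 was lower and 4 did not pass, where 33.5% passed. The median RNA log2 fold change of the receptors was 0.45, 0.10 and 0.95 in PP1 over DE, PP2 over PP1 and PP2 over DE, against 0.01, 0.01 and 0.05 over all genes. Without RNA PP2 replicate 3 these became 6 higher and 1 lower, 4 higher and 2 lower, and 6 higher and 3 lower, where 49.8%, 41.4% and 52.5% of all genes passed.

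In Ribo, 3 receptors rose and 1 fell from DE to PP1, 2 rose from PP1 to PP2, and 7 were higher and 1 lower in PP2 than in DE, where 7.53%, 5.01% and 27.6% of all genes passed. Their Ribo medians were 0.71, 1.36 and 2.28 in the same order of comparisons, against -0.04, 0.04 and 0.03 over all genes. BCAM, a receptor of laminins that hold LAMA5, averaged 15.8 ± 3.69 CPM in DE Ribo, 51.2 ± 5.93 CPM in PP1 Ribo (SD, n = 2 each) and 158 ± 30.2 CPM in PP2 Ribo (n = 3). It rose by 1.69 ± 0.39 in PP1 over DE (edgeR adjusted p = 0.0244) and by 1.63 ± 0.36 in PP2 over PP1 (adjusted p = 0.0297). ITGA6, the alpha subunit of the main epithelial laminin integrins, rose in PP2 over PP1 Ribo by 1.95 ± 0.40 (adjusted p = 0.0217), and ITGB1, the common beta subunit, was higher in PP2 than in DE by 2.54 ± 0.53 (adjusted p = 0.0064). DAG1, which encodes dystroglycan, was the receptor with a TE call, 2.57 ± 0.54 higher in PP2 than in DE (adjusted p = 0.0171). Its RNA averaged 284 ± 103 CPM in PP2 and 457 ± 30.2 CPM in DE, and its Ribo 262 ± 113 CPM in PP2 and 64.6 ± 3.89 CPM in DE (SD, n = 3 and n = 2). Without Ribo PP2 replicates 1 and 3 the DAG1 TE call was lost (1.94, adjusted p = 0.0872). ITGA6 was then 1.24 and ITGB1 1.63, and BCAM in PP2 over PP1 was 1.27, with PP2 Ribo resting on replicate 2 alone. The Ribo counts in that fit were 5 higher and 1 lower, 2 higher and 0 lower, and 7 higher and 0 lower, where 17.8%, 4.54% and 14.2% of all genes passed.

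Basement membrane partners of laminin were read from a list of 20 genes. In RNA, 6 rose and 2 fell from DE to PP1, 3 rose and 4 fell from PP1 to PP2, and 6 were higher and 7 lower in PP2 than in DE, where 24.3%, 18.4% and 33.5% of all genes passed. The medians were 0.26, -0.30 and 0.24 in those comparisons, beside 0.01, 0.01 and 0.05 over all genes. NID2, a nidogen that links laminin to collagen IV, averaged 18.5 ± 2.80 CPM in PP1 RNA and 1.59 ± 0.481 CPM in DE RNA (SD, n = 2 each), a rise of 3.55 ± 0.47 (edgeR adjusted p = 0.00104). FREM2, an extracellular matrix protein of the Fraser complex, rose by 2.59 ± 0.20 (adjusted p = 8.05e-05), and FREM1 of the same complex fell with -2.68 ± 0.38 (adjusted p = 0.00148). From PP1 to PP2, FBLN2, a fibulin that binds basement membranes, fell with -4.83 ± 0.24 (adjusted p = 0.000111), and SMOC2, a calcium-binding matrix protein, rose by 4.39 ± 0.69 (adjusted p = 0.00425). SMOC1 had 2 RNA counts in DE, 51 in PP1 and 1158 in PP2, and no Ribo count in DE. It rose in PP2 over PP1 RNA by 3.72 ± 0.47 (adjusted p = 0.00186). Without RNA PP2 replicate 3 the counts were 10 higher and 6 lower, 6 higher and 9 lower, and 8 higher and 7 lower, where 49.8%, 41.4% and 52.5% of all genes passed.

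In Ribo, 4 partners rose and 1 fell from DE to PP1, 4 rose and 1 fell from PP1 to PP2, and 10 were higher and 1 lower in PP2 than in DE, where 7.53%, 5.01% and 27.6% of all genes passed. Their medians were 0.75, 1.42 and 1.72, beside -0.04, 0.04 and 0.03 over all genes. NID1, the more abundant nidogen, averaged 328 ± 136 CPM in PP2 Ribo (SD, n = 3) and 16.2 ± 0.372 CPM in DE Ribo (n = 2), a difference of 4.34 ± 0.53 (edgeR adjusted p = 0.000324). TE passed for 2 partners, each higher in PP2 than in DE, FBLN2 by 2.46 ± 0.53 (adjusted p = 0.0199) and FRAS1, another Fraser complex protein, by 2.39 ± 0.58 (adjusted p = 0.0298). Without Ribo PP2 replicates 1 and 3, PP2 Ribo rested on replicate 2 alone and neither TE call held. The TE differences were then 1.98 for FBLN2 and 1.34 for FRAS1, and NID1 Ribo was 3.48. The Ribo counts were then 8 higher and 3 lower, 1 higher and 1 lower, and 10 higher and 4 lower of 19 tested, where 17.8%, 4.54% and 14.2% of all genes passed. Netrins, secreted proteins that share the laminin N-terminal domain, fell in RNA from DE to PP1 for 4 of 5 tested, with a median log2 fold change of -3.36, and 1 did not pass, where 24.3% of all genes passed. Of 12 enzymes that add the laminin-binding sugar to dystroglycan, 1 rose, 1 fell and 10 did not pass in RNA from DE to PP1, with a median of -0.11, and 0 passed in Ribo, where 1 had an unadjusted p under 0.05 in edgeR. Without RNA PP2 replicate 3, RNA between PP1 and DE passed for 5 netrins, 4 of them lower, and for 7 of these enzymes, 4 higher and 3 lower, a share of the 12 (58.3%) near the 49.8% over all genes.

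The genes with the pattern most like a chain were ranked by the root mean square difference of log2 CPM, centred within each assay, over the 14 libraries and 10484 or 10485 genes. LAMB1 had CTSB (0.159) and GOLM1 (0.18) as its nearest genes, and LAMC1 had XPR1 (0.258) and GLDC (0.304). LAMC1 was 21st in the order for LAMB1, and LAMB1 was 11th in that for LAMC1, at a difference of 0.377. LAMA1 was nearest to HLA-B (0.141) and SPINT1 (0.183), and LAMA5 to ATXN2L (0.147) and SERINC2 (0.226). The low chains had more distant neighbours, COL11A1 (0.413) and NPNT (0.469) for LAMA3, WSB2 (0.355) and LRRC75B (0.392) for LAMA2, ARHGAP28 (0.472) and ADAM23 (0.557) for LAMA4, and PRKRA-AS1 (0.706) and USP40 (0.761) for LAMB3. All genes share the same libraries, and this likeness is a description with no test.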

How the data were processed

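Raw read counts for every gene symbol, with a gene length in bases, were deposited by the authors as 1 table, per the file header. Per the submitters' processing notes, cutadapt 1.18, Bowtie 1.2, STAR 2.7.1a and featureCounts 1.6.4 were used with hg38. The sources used here did not state strand setting, annotation release or counted feature. The 14 columns of counts all differed and were all used. Each assay was fitted with its 3 stages in edgeR 4.0.16 (R 4.3.3) after filterByExpr and TMM scaling. The quasi-likelihood F test compared stages, with Benjamini-Hochberg adjustment over every tested gene. TE was the interaction in 1 fit of all 14 libraries. SE is the log2 fold change over the square root of F. CPM per kilobase used the deposited length, since no coding lengths were given, and the length may count isoforms that these cells do not use. Scripts were tested on simulated data. Alternatives were DESeq2 1.42.0, limma 3.58.1 voom, other filters and scalings, and leaving libraries out. Leaving out libraries that stand apart, for the lists and their named genes, was chosen after seeing the data.

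All 9 chains passed the low-count filter in each fit. Members and lists were chosen with earlier results of these data known. Beside all members, the text named up to 4 passing genes of the largest change per list and comparison, of which a few with very low counts or already described were left out, and the 2 nearest genes of each member, of which those of LAMB2 are not reported here. Promoter sequences are from RefSeq (GRCh38.p14).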

Additional observations from a re-analysis of the deposited data

How the results depend on the processing

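Between 3 and 9 chains passed for RNA PP1 over DE when 1 library was left out, 2 to 7 for RNA PP2 over PP1 and 2 to 7 for RNA PP2 over DE. The ranges were 0 to 4, 0 to 4 and 2 to 5 for the same Ribo comparisons, and 0 to 0, 0 to 4 and 0 to 6 for TE. Where these fits lost a call they had fewer libraries, and otherwise the cause was not tested. The share of all genes passing moved as well. For RNA PP1 over DE it was 24.3% with all libraries and 49.8% without RNA PP2 replicate 3, a fit in which all 9 chains passed. Shares over all genes in the other fits are not given in this section. The counts here therefore describe the fits and are not a result about the laminin chains. RNA PP1 over DE gave 8 calls with limma voom, 9 with a fit of the 2 stages alone and 8 with the replicate block. That fit of 2 stages gave 3 calls for RNA PP2 over PP1, 3 for RNA PP2 over DE, 4 for Ribo PP1 over DE, 0 for Ribo PP2 over PP1 and 0 for TE PP2 over DE. Limma voom gave 4 for Ribo PP1 over DE, 5 for Ribo PP2 over PP1, 5 for TE PP2 over PP1 and 6 for TE PP2 over DE. For Ribo PP2 over PP1, no filter, DESeq2 and protein-coding genes alone gave 2 each. For TE PP2 over DE, no filter and DESeq2 gave 4 each, and no filter moved the median of all genes by 0.36. It moved that of Ribo PP2 over PP1 by 0.28. Without Ribo PP2 replicates 1 and 3 the counts were 4 for Ribo PP1 over DE, 0 for Ribo PP2 over PP1, 3 for Ribo PP2 over DE and 0 for TE PP2 over DE.

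The tests above did not treat equal replicate numbers as pairs. Correlations of same-numbered deviations from the group means ran from -0.26 to 0.27. They cannot decide whether equal numbers share a culture or batch, since the deviations of 2 libraries in a group mirror each other. The replicate block gave 1 call for Ribo PP1 over DE, 0 for Ribo PP2 over PP1, 2 for Ribo PP2 over DE and 0 for TE PP2 over DE.

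Signs that turned belonged to values that did not pass in any such fit. RNA PP2 over DE of LAMB2 was 0.06 with voom, 0.03 with protein-coding genes and 0.07 with the block. Ribo PP2 over PP1 was 0.11 for LAMA5 with no filter, -0.03 for LAMA1 and -0.08 for LAMB1 with the block, and -0.56, -0.63 and -0.08 for LAMA1, LAMB1 and LAMC1 without Ribo PP2 replicates 1 and 3. Ribo PP2 over DE of LAMA4 was -0.20 at the stricter filter of 50 counts, 0 with protein-coding genes, -0.15 with the block and -0.71 without those replicates. In the last fit LAMA5 was -0.04 and LAMB3 0.59, and LAMB3 was 0.42 with the block. TE PP2 over DE of LAMA4 was -0.12 at the stricter filter and -0.63 without those replicates. With 1 library left out, signs also turned for LAMA4 (-0.42 to 0.20) and LAMB2 (-0.18 to 0.12) in RNA PP2 over DE and for LAMA3 in RNA PP2 over PP1 (-0.06 to 0.41). In Ribo they turned for LAMA3 (-1.13 to 0.48) and LAMB3 (-3.91 to 0.23) in PP1 over DE, for LAMA5 (-0.39 to 0.01) and LAMB1 (-0.05 to 0.54) in PP2 over PP1, and for LAMA4 (-0.20 to 0.55) and LAMB3 (-1.44 to 2.79) in PP2 over DE. In TE they turned for LAMA4 (-0.23 to 0.63) and LAMA3 (-1.55 to 0.15) in PP2 over DE and for LAMB1 (-0.01 to 0.37) in PP1 over DE.

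Of 1447 refitted fold changes of the chains, 1246 kept their direction and side of the threshold. The planned exon-length alternative was not run, because no exon lengths were given. With no length scaling, an alternative chosen after seeing the data, LAMB1 took 75.8%, 91.8% and 84.0% of the beta chains in DE, PP1 and PP2 RNA. Depth limits LAMB3, LAMA3 and LAMA4, whose lowest groups held 3, 14 and 21 counts.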

Other observations

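LAMC3 and LAMB4, further laminin genes in the table, were looked at after the values of the chains above were seen. LAMC3 encodes a gamma chain of nerve and vascular tissue, and its RNA fell where that of LAMC1 rose. LAMC3 RNA averaged 1.49 ± 0.707 CPM in PP1 and 9.77 ± 1.98 CPM in DE (SD, n = 2 each), a log2 fold change of -2.73 ± 0.62 (edgeR adjusted p = 0.0142). LAMB4 had 1, 15 and 11 RNA counts in DE, PP1 and PP2 and was not tested.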
